A study of Homo sapiens with 27 samples.

Results

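JUN, JUNB, JUND, IER2, IER5, CEBPB, CEBPD, SOX4 and FOXC1 are 9 human protein-coding genes that each have an mRNA annotated with 1 exon, and they were taken by Ensembl ID from a table of 34464 genes. The table came from U2OS cells, a human osteosarcoma line, that received a scrambled control shRNA or 1 of 2 lentiviral shRNAs against the nuclear basket protein TPR ('TPR A' and 'TPR D') for 5 days. Each of the 3 shRNAs had 3 replicate cultures, and from each culture a small share of the cells was kept as the total fraction while the rest was separated with detergent into a nuclear and a cytoplasmic/ER fraction, which made 27 libraries of poly(A)+ RNA. The study asked which mRNAs need TPR to reach the cytoplasm, and it is asked here of regulatory genes with unspliced mRNAs. All groups share the same line, and TPR was lowered rather than deleted.

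TPR lines the nuclear side of the nuclear pore, where it forms part of the basket that mRNPs meet on their way out. Most mRNAs reach the pore with export factors loaded during splicing, whereas intronless mRNAs have to recruit them in other ways. Immediate-early genes are transcribed within minutes of a stimulus without new protein synthesis, and many of them have few introns, or none, and short-lived mRNAs. JUN, JUNB and JUND are the JUN-family subunits of AP-1, a dimer that binds DNA mostly together with a FOS or ATF protein. IER2 and IER5 are immediate early response proteins. CEBPB and CEBPD are basic leucine zipper factors of inflammation and differentiation. SOX4 is a high-mobility-group box factor, and FOXC1 is a forkhead factor of mesenchyme.

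The annotation (GENCODE 44 on GRCh37) bore out the label for most of the genes. JUNB (chr19:12902300-12904129, plus strand), IER5 (chr1:181057836-181062036, plus strand), CEBPB (chr20:48807367-48809205, plus strand), CEBPD (chr8:48649475-48650726, minus strand), SOX4 (chr6:21593982-21598850, plus strand) and FOXC1 (chr6:1610150-1614132, plus strand) each have 1 transcript of 1 exon. JUN (chr1:59242517-59249720, minus strand) has 2 protein-coding transcripts, both of 1 exon, and 1 spliced transcript of another class. JUND (chr19:18390504-18392432, minus strand) has 1 unspliced and 1 spliced protein-coding transcript. IER2 (chr19:13261225-13265725, plus strand) goes against the label, since 2 of its 3 protein-coding transcripts are spliced and only 1 is not.

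The longest unspliced mRNAs measure 1252 nt for CEBPD to 4869 nt for SOX4, with a median of 2934 nt, against 3519 nt over 12333 mRNAs of the genes analysed. Their GC content runs from 49.8% for IER5 to 69.9% for JUND, with a median of 61.7%, against 48.4% over those mRNAs.

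The promoters are shown as a description, chosen with the levels known. In the total fraction JUN and SOX4 differed most with TPR shRNA, and JUND lay lower with both. The order was another in the other fractions. Of these genes only JUN was called against control, and whether a motif has to do with a level was not tested. The sequences are from RefSeq (GRCh38.p14, 250 bases before to 50 after the start site), and 8 of the 9 genes matched, all but CEBPD. TGACNTCA, which takes in the cAMP response element and the JUN-ATF site but allows any letter at N, was searched on both strands. It stood in the promoters of JUN, JUND and SOX4, 3 of 8 genes, against 7.72% of 35116 promoters of this length. On the lines that follow the match is in capitals, 67, 200 and 174 bases before the start site in that order. In SOX4 it is read on the other strand, and there N is C, where JUN has A and JUND has G.
JUN promoter, chr1:58784096-58784125, minus strand: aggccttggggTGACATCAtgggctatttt
JUND promoter, chr19:18281804-18281833, minus strand: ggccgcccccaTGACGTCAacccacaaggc
SOX4 promoter, chr6:21593566-21593595, plus strand: gtaaattggaaTGAGGTCAgatttggagct

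The CCAAT box, searched on both strands, stood in 7 of the 8 genes, all but IER2, against 34.6% of all promoters. Here and above a gene was counted if any of its promoters had a match, whereas the shares are per promoter. In CEBPB the CCAAT match lay 2 bases past 1 start site and 245 bases before another. TATAAA on the sense strand stood in JUNB and CEBPB, 31 and 29 bases before the start site, against 7.33%. TGANTCA (both strands), the AP-1 site proper, TTGCNNAA (both strands), a C/EBP site, and the CArG box of serum response factor were in none of the 8, against 7.71%, 10.5% and 1.29% of all promoters. No match overlapped that of another motif. The capitals below mark the TATA letters of the 2 genes and, in the third line, the ATTTA pentamers of the AU-rich stretch of IER5, the mRNA with the most of them among the 9.
JUNB promoter (GRCh38.p14), chr19:12791443-12791472, plus strand: tgactagcgcggTATAAAggcgtgtggctc
CEBPB promoter (GRCh38.p14), chr20:50190789-50190818, plus strand: acgggccgccctTATAAAtaaccgggctca
IER5 3′UTR (GRCh37), chr1:181061584-181061613, plus strand: ttcctttATTTATTTATTTATTTAattata

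The 3′UTR of IER5 holds 10 ATTTA pentamers, those of FOXC1 6, SOX4 4, JUN 3 and JUNB 2, those of JUND and CEBPB 1, and those of IER2 and CEBPD 0. At least 1 is found in 73.5% of the 12333 mRNAs, so that 7 of 9 genes is close to the share of all. GGTAAG, the letters of a strong 5′ splice site, is in none of the 9 mRNAs and in 27% of all.

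Levels are FPKM, which the authors computed per transcript length and library size, divided here by a scaling factor between 0.954 and 1.06. They can be compared between genes, and in bulk libraries such as these fewer cells that make an mRNA and less of it per cell cannot be told apart. Tests used limma on log2(FPKM + 0.1) over 14611 genes with a mean above 1 FPKM, and adjusted p-values are Benjamini-Hochberg values over all 14611, called below 0.05. The replicates are cultures with no stated origin beyond the line. The p-values thus measure the spread between the libraries of a group, pooled over the 9 groups of shRNA and fraction. Libraries of the same culture were taken as independent, unless the culture is named as a block. The steps between low values put 1 FPKM on 1 kb at 31.6 to 87 reads, so that CEBPD and FOXC1, the lowest of the 9, rested on about 107 and 281 reads or more in each library. TPR itself was at 24.3 to 28.2 FPKM in the total control libraries, 3.55 to 4.86 with TPR A and 3.39 to 6.3 with TPR D. Of the U2OS markers, VIM was at a mean of 1590 FPKM, SPARC at 522, COL1A1 at 42.3 and RUNX2 at 15.7, ALPL at 4.2, COL1A2 at 0.263 and SP7 and TWIST1 below 0.05. Of 9 markers of other cell types, TUBB3 was at 64.5 FPKM, CD68 at 9.89, EPCAM at 3.87 and RBFOX3 at 2.96, and CDH1, PTPRC, KRT5, CDH5 and CD3E were below 1.

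In control replicate 2 the libraries labelled nuclear and total stood apart from their groups. The one labelled nuclear held 21.8% mitochondrial mRNA (other nuclear libraries 0.774 to 2.42%), the one labelled total 0.738% (other total libraries 15.8 to 24.7%), and across genes each correlated best with the other's fraction, the only 2 of the 27 libraries to do so. The labels were kept, and the total changes from control of the 9 genes are also given without that culture. Nuclear and cytoplasmic/ER changes without it are given for some of the genes, and N/C changes as a median and range. Statements on whether levels overlapped include it.

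All 9 genes passed the filter. Over the 27 libraries JUND had the highest mean level, 90 FPKM, followed by IER2 (60.5), JUN (57.3), JUNB (46.9), IER5 (41.0), CEBPB (39.9), SOX4 (20.5), CEBPD (5.23) and FOXC1 (3.46). In the total control libraries JUND (101 to 106 FPKM) lay above every other gene of the 9. IER2, IER5, JUNB, JUN and CEBPB overlapped between 28.4 and 87.7 FPKM, and their order was not set beyond the spread of the cultures. SOX4 (10.6 to 17.9 FPKM) lay below all 5 of them, and CEBPD (2.87 to 6.22) and FOXC1 (2.36 to 4.42) lay lower still and overlapped each other.

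**Figure D1:**
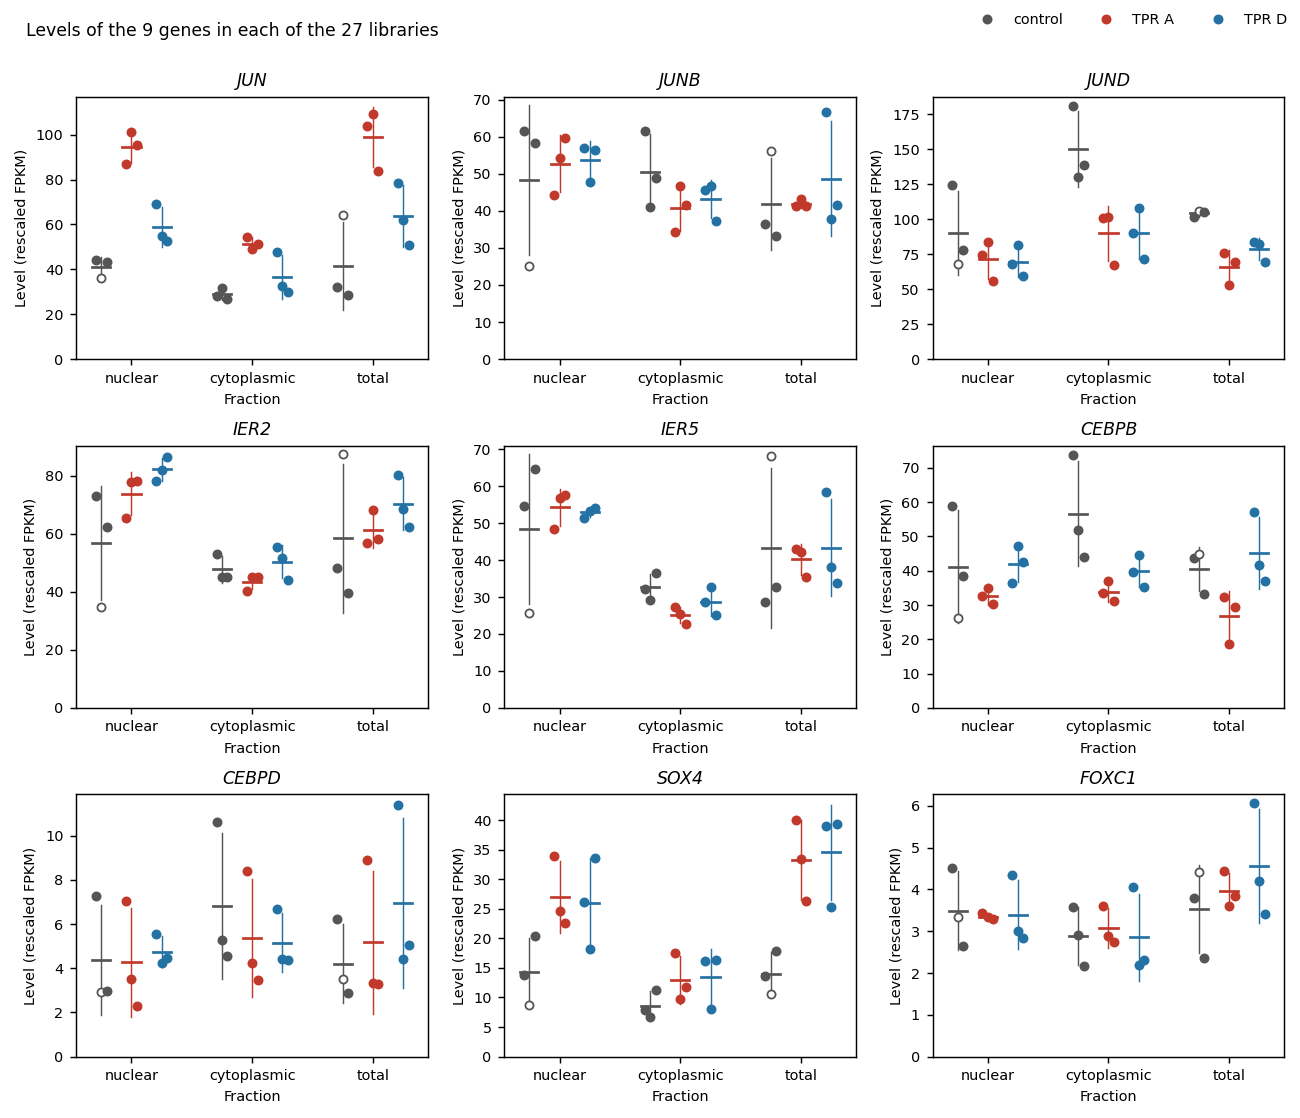
Level (rescaled FPKM, linear axis from 0) of each of the 9 genes by fraction, for control, TPR A and TPR D; points are single libraries in the order of replicates 1 to 3, horizontal bars group means and vertical lines 1 SD (n = 3). Open points are the libraries labelled nuclear and total of control replicate 2; JUN with TPR A lies above the control libraries in every fraction, and JUND in the total fraction lies below them.

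JUN, the founding member of the AP-1 family, was the gene of the 9 whose mRNA rose past the threshold. In the total fraction it was at 31.9, 64.3 and 28.4 FPKM in the control cultures, at 104, 109 and 84.0 with TPR A and at 78.6, 61.8 and 51.1 with TPR D. TPR A lay above all controls, whereas TPR D overlapped the control culture at 64.3. JUN and SOX4 were the genes of the 9 with all TPR A cultures above control (9.74% of all genes), and SOX4 the one with TPR D (8.2%). The change was 1.34 ± 0.24 (log2, SE) with TPR A (limma, adjusted p = 0.0111), a 2.54-fold rise, and 0.70 ± 0.24 with TPR D (adjusted p = 0.175). It was the 1 call among the 9 genes with TPR A, where 0.821% of all genes were called in either direction, and there was none with TPR D, where 0.753% were. The overlapping control value came from the library labelled total of replicate 2: without that culture the change was 1.71 with TPR A (adjusted p = 0.000444) and 1.06 with TPR D (adjusted p = 0.0259), so that both were called (with 0.281% and 0.479% of all genes called). With TPR A the call was lost without control replicate 1 (1.20, adjusted p = 0.0775), TPR A replicate 1 (1.30, adjusted p = 0.103) or TPR A replicate 2 (1.27, adjusted p = 0.141). Total libraries of control and TPR A with the same replicate number deviated alike from their group means, though no label pairs them. With the replicate as a block JUN stayed called (adjusted p = 0.00407, with 2.59% of all genes called).

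The JUN levels of TPR A cells lay above control in both compartments as well. In the nuclear fraction it stood at 44, 36.0 and 43.2 FPKM in control, 87.0, 101 and 95.3 with TPR A, and 69.0, 54.7 and 52.7 with TPR D. Neither TPR group overlapped the controls there. Nuclear levels clear of control on the upper side were found for JUN and SOX4 with TPR A (8.16% of all genes) and for JUN and IER2 under TPR D (7.02%). The nuclear change was 1.20 ± 0.24 with TPR A (adjusted p = 0.0150, called, with 0.903% of all genes called) and 0.51 ± 0.24 with TPR D (adjusted p = 0.526, with 0.479% of all genes called and none of the 9). The TPR A call did not hold without control replicate 1 or any 1 of the 3 TPR A cultures (adjusted p = 0.0544 to 0.163), and it held without control replicate 2 (1.11, adjusted p = 0.0190). In the cytoplasmic/ER fraction the levels were 28.0, 31.5 and 26.9 FPKM in control, 54.3, 48.9 and 51.1 with TPR A, and 47.8, 32.4 and 29.9 with TPR D. Only the TPR A cultures were clear of the controls, and JUN was the 1 gene of the 9 to be so on the upper side (7.17% of all genes). Neither change passed the threshold (0.84 ± 0.24, adjusted p = 0.122, and 0.32 ± 0.24, adjusted p = 0.796), nor without control replicate 2 (0.90 and 0.39), and none of the 9 genes was called in this fraction, where 0.623% and 0.575% of all genes were.

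With TPR A the SOX4 difference from control was the next above 0 after that of JUN in the total and nuclear fractions, and with TPR D it stood above JUN in the total (1.30 against 0.70), nuclear (0.90 against 0.51) and cytoplasmic/ER fraction (0.60 against 0.32). The direct difference between the shRNAs in the total fraction was −0.05 ± 0.34 (adjusted p = 0.999). In the total fraction the control cultures were at 13.7, 10.6 and 17.9 FPKM, TPR A at 40.0, 33.5 and 26.4, and TPR D at 39.1, 25.4 and 39.3. All 6 TPR-depleted cultures were above all 3 controls. The changes were 1.25 ± 0.34 (log2, adjusted p = 0.0751) and 1.30 ± 0.34 (adjusted p = 0.0693), just short of the threshold, and they use the same control libraries. With the replicate as a block both changes were called (adjusted p = 0.0103 for TPR A), with 2.59% and 3.16% of all genes called, though no label pairs the cultures. Both were also called without control replicate 3 (1.44, adjusted p = 0.0462, and 1.49, adjusted p = 0.0488, with 1.14% and 0.78% of all genes called). Without control replicate 2 they were 1.06 (adjusted p = 0.288) and 1.11 (adjusted p = 0.221).

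In the nuclear fraction SOX4 was at 13.7, 8.69 and 20.3 FPKM in control, 34.0, 24.6 and 22.6 with TPR A and 26.2, 18.2 and 33.6 with TPR D, and in the cytoplasmic/ER fraction at 7.91, 6.69 and 11.3, then 17.5, 9.73 and 11.8, then 16.2, 7.99 and 16.3. Only nuclear TPR A lay clear of the controls. No change passed the threshold, with 0.98 and 0.90 in the nucleus and 0.58 and 0.60 in the cytoplasm (TPR A and TPR D, adjusted p = 0.185 to 0.633). Leaving out control replicate 2 gave 0.67 and 0.59 in the nucleus and 0.41 and 0.44 in the cytoplasm.

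JUND, the JUN-family member that most cells hold at a steady level, lay lower with both shRNAs. Its total level was 101, 106 and 105 FPKM in control, 76.1, 52.7 and 69.4 with TPR A, and 83.8, 82.4 and 69.4 with TPR D. By the labels, every TPR-depleted culture was below every control. The control value of 106 is that of the library labelled total of replicate 2, which stood apart. The library labelled nuclear of that culture, which resembled the total fraction, was at 68.1 FPKM, within the range of the TPR-depleted total libraries. In the cytoplasmic/ER fraction every TPR-depleted culture was also below every control, with 181, 131 and 139 FPKM in control, 101, 102 and 67.3 with TPR A, and 90.2, 108 and 71.8 with TPR D. In the nucleus the groups overlapped, at 125, 68.1 and 77.7, then 74.3, 83.6 and 55.9, then 67.9, 81.5 and 59.4 FPKM. None of these differences passed the threshold: they were −0.68 ± 0.23 and −0.41 ± 0.23 in the total (adjusted p = 0.207 and 0.418), −0.75 and −0.74 in the cytoplasmic/ER (adjusted p = 0.158 and 0.196) and −0.31 and −0.33 in the nuclear fraction (adjusted p = 0.642 and 0.769). They were, without control replicate 2, −0.66 and −0.40, −0.84 and −0.83, and −0.49 and −0.51 in that order, none of them called. With TPR A, JUND and CEBPB lay clear below control in the total fraction (8.33% of all genes) and JUND, IER5 and CEBPB in the cytoplasmic/ER fraction (8.62%). With TPR D this held for JUND in both (7.93% and 7.72%).

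JUNB, which often acts in opposition to JUN at AP-1 sites, differed from control by 0.04 ± 0.28 and 0.21 ± 0.28 in the total fraction (TPR A and TPR D, not called). These were 0.27 and 0.44 without control replicate 2, and the nuclear changes of 0.23 and 0.26 turned to −0.19 and −0.16. The total libraries gave 36.4, 56.1 and 33.3 FPKM in control, 41.3, 43.1 and 41.3 with TPR A and 66.6, 37.9 and 41.6 with TPR D, and the groups overlapped in all 3 fractions. As the 3 JUN-family mRNAs can be compared per length, their make-up is given as shares of their sum. JUN took 21.4 ± 6.12% (SD, n = 3) of the sum in the total control libraries, 47.8 ± 5.14% with TPR A and 33.2 ± 1.53% with TPR D. JUND took 56.6 ± 8.58%, 31.9 ± 5.43% and 41.6 ± 4.45%, and JUNB 22.0 ± 2.48%, 20.3 ± 1.42% and 25.2 ± 4.16%. The sum itself was 188 ± 33.5, 207 ± 13.4 and 191 ± 34.4 FPKM, and overlapped between the shRNAs. JUND was thus the most abundant JUN-family mRNA in each total library of control and of TPR D, and JUN in each of TPR A. Control replicate 2 had the highest JUN share of the control total libraries, 28.4%, against 17.0% and 18.8% in the other two.

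**Figure D2:**
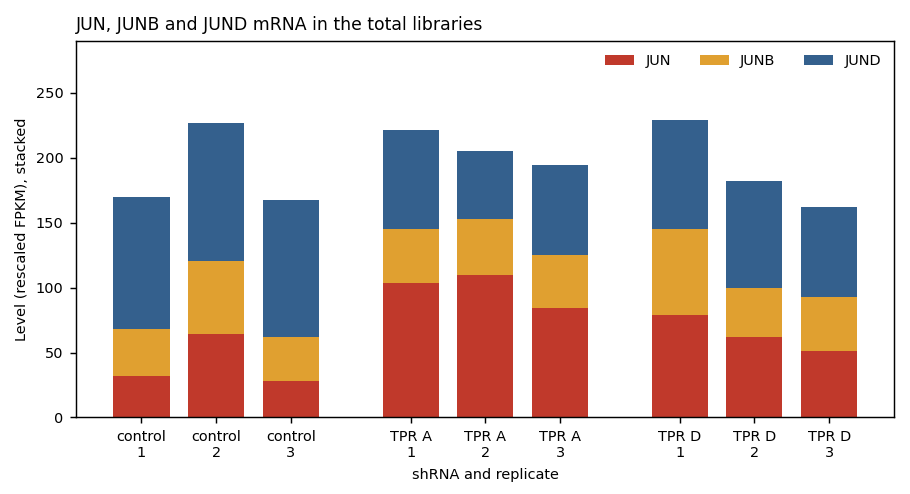
Stacked levels (rescaled FPKM, axis from 0) of JUN, JUNB and JUND in the 9 total libraries, one bar per culture, by shRNA and replicate. JUN makes up 43.1 to 53.3% of the sum with TPR A, 31.5 to 34.3% with TPR D and 17.0 to 28.4% in control.

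No change from control was called for the C/EBP genes. CEBPB in the total fraction was at 43.6, 44.9 and 33.2 FPKM in control, 32.2, 18.7 and 29.5 with TPR A and 57, 41.7 and 36.9 with TPR D. TPR A lay below all controls and TPR D overlapped them. The changes were −0.62 ± 0.26 (adjusted p = 0.307) and 0.14 ± 0.26 (adjusted p = 0.823), and the direct difference between the shRNAs was −0.77 ± 0.26 (adjusted p = 0.306, where 0.281% of all genes were called and none of the 9 was). In the cytoplasmic/ER fraction CEBPB was at 73.8, 52.0 and 44.1 FPKM in control, 33.5, 37 and 31.2 with TPR A and 39.6, 44.6 and 35.4 with TPR D, changes of −0.71 and −0.48 that were not called (adjusted p = 0.242 and 0.611). The CEBPB changes without control replicate 2 were −0.54 and 0.22 in the total and −0.75 and −0.52 in the cytoplasmic/ER fraction, and in the nucleus they went from −0.26 and 0.10 to −0.55 and −0.19. CEBPD varied more between cultures than between shRNAs: in the total fraction it ran from 2.87 to 6.22 FPKM in control, 3.27 to 8.90 with TPR A and 4.42 to 11.4 with TPR D, and replicate 1 gave the highest of the 3 values in each of the 9 groups. Its total changes were 0.20 ± 0.48 and 0.66 ± 0.48, and 0.12 and 0.57 without control replicate 2.

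Neither immediate early response gene was called against control, and in the total fraction the changes were 0.15 and 0.35 for IER2 and −0.0015 and 0.07 for IER5 (TPR A and TPR D). Without control replicate 2, whose library labelled total held the highest control level of both (87.7 and 68.2 FPKM), they were 0.48 and 0.68 for IER2 and 0.38 and 0.46 for IER5, with the lowest adjusted p at 0.0840 for IER2 with TPR D. IER2 was at 48.3, 87.7 and 39.5 FPKM in control, 57, 68.1 and 58.4 with TPR A and 80.5, 68.7 and 62.2 with TPR D. In the nucleus its levels were 73.1, 34.8 and 62.5 FPKM in control, 65.4, 78.1 and 78.1 with TPR A and 78.3, 82.1 and 86.4 with TPR D, and TPR D lay above all controls. The low control value was that of replicate 2, and without it the nuclear changes went from 0.44 and 0.60 to 0.12 and 0.28.

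IER5, which helps to activate heat shock factor 1, was lower in the cytoplasm of TPR A cells than in any control culture (27.2, 25.5 and 22.8 against 32.3, 29.3 and 36.5 FPKM), and with TPR D it was at 28.5, 32.6 and 25.1. In the nucleus it was at 54.7, 25.7 and 64.7 FPKM in control, 48.5, 56.8 and 57.5 with TPR A and 51.5, 53.4 and 54 with TPR D, changes of 0.27 and 0.24 that turned to −0.14 and −0.17 without control replicate 2. FOXC1 ranged from 2.18 to 6.06 FPKM over all libraries, and its groups overlapped in every fraction, with total changes of 0.21 ± 0.28 and 0.37 ± 0.28, and 0.39 and 0.55 without control replicate 2. For JUNB, IER2, IER5, CEBPD and FOXC1 no comparison with control gave an adjusted p under 0.428.

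**Figure D3:**
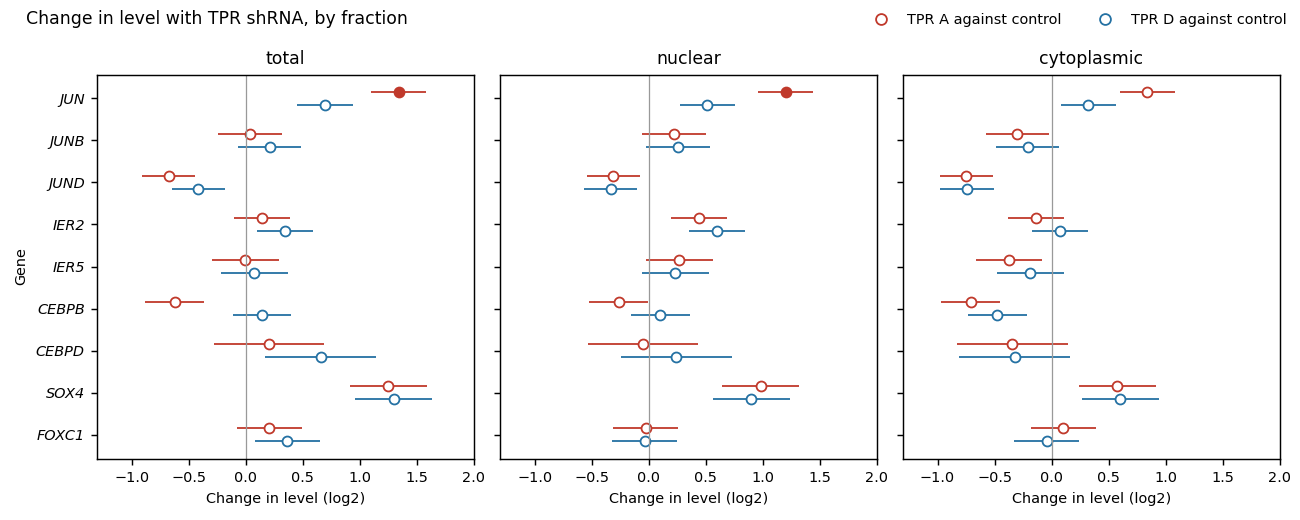
Change in level (log2, TPR shRNA minus control; horizontal axis in log2 units) of each gene in the total, nuclear and cytoplasmic fractions; points are limma estimates, lines 1 SE, red TPR A and blue TPR D, and filled points have an adjusted p below 0.05. JUN with TPR A is filled in the total (1.34) and nuclear (1.20) fractions, and SOX4 lies at 0.58 to 1.30 in each fraction.

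The N/C ratio is the log2 level in the nuclear library minus that in the cytoplasmic/ER library of the same culture, and a value of 0 means the same FPKM in both. It compares an mRNA with the others of its fraction and is not a share of molecules. In control cells JUND was on the cytoplasmic side, at −0.54, −0.94 and −0.83 in the 3 cultures, and CEBPD (−0.54, −0.83 and −0.61) and CEBPB (−0.33, −0.99 and −0.19) had the same sign in each. SOX4 (0.79, 0.37 and 0.84), JUN (0.65, 0.19 and 0.68) and FOXC1 (0.32, 0.19 and 0.27) were on the nuclear side in each. JUNB, IER2 and IER5 differed in sign between the cultures, and replicate 2 was the lowest of the 3 in all 9 genes. Of the 9, JUND was called (−0.77 ± 0.23, adjusted p = 0.0122), where 39.4% of all genes were called in either direction.

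Nuclear and cytoplasmic/ER libraries of 1 culture come from the same cells, and with the culture as a block JUND, CEBPD, CEBPB, SOX4 and JUN were called in control (adjusted p = 0.000852, 0.00220, 0.0254, 0.00785 and 0.0184, with 55.1% of all genes called). The JUND call was lost without control replicate 2 (−0.69, adjusted p = 0.0708) or replicate 3 (−0.74, adjusted p = 0.0717). Without replicate 2 the genes called were JUN (0.67, adjusted p = 0.0333) and IER5 (0.79, adjusted p = 0.0105), both nuclear, where 29.8% of all were called in either direction.

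With TPR A the mRNAs of IER5 (1.10 ± 0.29), SOX4 (1.07 ± 0.34), JUN (0.87 ± 0.24) and IER2 (0.76 ± 0.25) were called as higher in the nuclear fraction (adjusted p = 0.00738, 0.0204, 0.00946 and 0.0241). These were 4 of 9 genes, where 28.4% of all genes were called in either direction. With TPR D the 4 called were the same genes, at 0.89, 0.97, 0.70 and 0.71 (adjusted p = 0.0243, 0.0318, 0.0302 and 0.0307), where 31.7% of all were called in either direction. With the culture as a block 5 were called with each shRNA, these 4 and CEBPD with TPR A (−0.37, adjusted p = 0.0419) or JUND with TPR D (−0.36, adjusted p = 0.0361), where 46.2% and 48.6% of all genes were. Each of the 4 calls rested on all its cultures or nearly so: with TPR A, IER2 and SOX4 lost it without any 1 of the 3 TPR A cultures and JUN and IER5 without replicate 2 or 3 (adjusted p = 0.0543 to 0.163). With TPR D, IER2, IER5 and SOX4 lost it without any 1 of the 3 TPR D cultures, JUN without replicate 2 or 3, and SOX4 also without control replicate 1 (adjusted p = 0.0501 to 0.220). That a gene was called with TPR shRNA and not in control does not show a difference between them, which is the comparison given next.

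**Figure D4:**
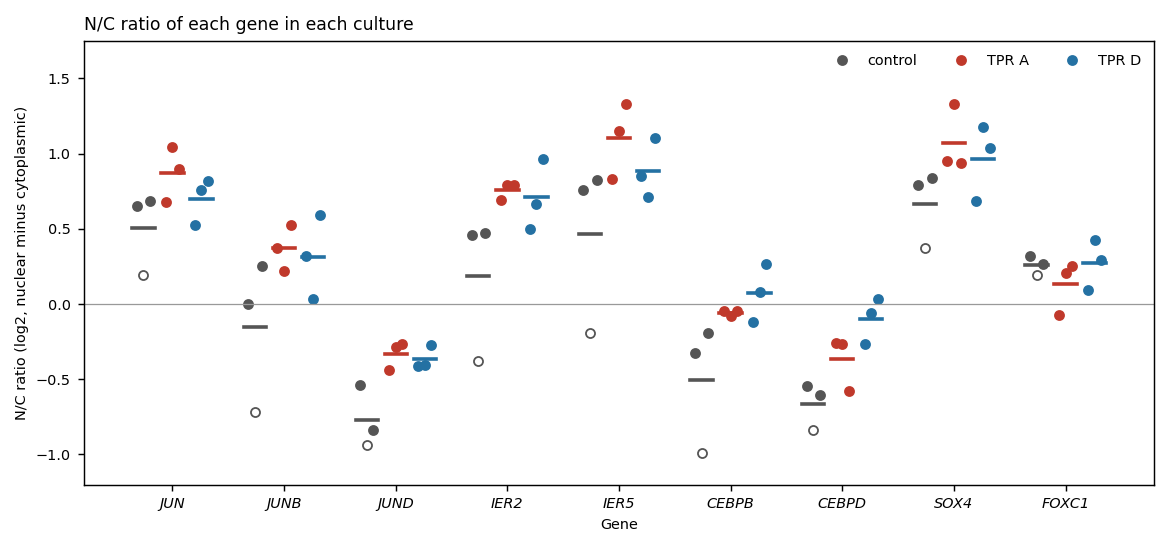
N/C ratio (log2 level, nuclear minus cytoplasmic) of each gene in each of the 9 cultures, with bars at the mean of 3; grey is control, red TPR A and blue TPR D, and open points are control replicate 2. The open point is the lowest control culture for all 9 genes, and JUND, IER2 and CEBPB have all 6 TPR-depleted cultures above all 3 controls.

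The N/C change is the N/C ratio of TPR-depleted cells minus that of control cells, and it was above 0 in 8 of the 9 genes. With both shRNAs together it was 0.55 ± 0.30 (log2, SE) for IER2, 0.53 ± 0.36 for IER5, 0.51 ± 0.32 for CEBPB, 0.50 ± 0.34 for JUNB, 0.43 ± 0.59 for CEBPD, 0.42 ± 0.29 for JUND, 0.35 ± 0.41 for SOX4, 0.28 ± 0.30 for JUN and −0.06 ± 0.35 for FOXC1. None passed the threshold, and none of the 14611 genes did (0%, limma). In this fit, which does not pair the libraries of a culture, 251 of the 14611 genes but none of the 9 had an unadjusted value below 0.05. That share of genes is itself below 0.05, and the lack of calls does not show that no N/C ratio changed. The median of the 9 was 0.43, against −0.0030 over all genes, of which 49.7% were above 0. TPR A alone gave a median of 0.44 (8 of 9 above 0, all genes 50.2%), and TPR D alone 0.42 (9 of 9, all genes 49.4%). Both shRNAs were set against the same control cultures. No gene of the 9, and 0% of all genes, differed between TPR A and TPR D by the test of that difference, whose values ran from −0.27 for CEBPD to 0.22 for IER5. The count of calls among the 9 was 0 in every alternative run, the culture as a block included. That block pairs the nuclear and cytoplasmic/ER libraries of a culture. With it and both shRNAs, the lowest limma p of the 9 was 0.0205 unadjusted, and the lowest adjusted p was 0.530.

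The size depended on control replicate 2. Centred on the control mean of each gene, the median of the 9 genes was 0.15, −0.32 and 0.17 in control replicates 1, 2 and 3, 0.37, 0.49 and 0.45 with TPR A, and 0.36, 0.36 and 0.64 with TPR D. Without control replicate 2 the median N/C change was 0.22 (both shRNAs), 0.24 (TPR A alone) and 0.19 (TPR D alone), and 8 of 9 genes were above 0 in each case. The values with both shRNAs then ran from −0.09 for FOXC1 to 0.34 for CEBPD and JUND. The library names of replicate 1 follow another pattern than the rest, so the 2 sets were also taken alone. Within replicate 1, TPR A gave a median of 0.16 with 8 of 9 genes above 0 and TPR D one of 0.091 with 6 of 9, where JUN (−0.12), SOX4 (−0.10) and FOXC1 (−0.23) were below 0. Within replicates 2 and 3, which include the culture that stood apart, it was 0.53 and 0.55 with 9 of 9 above 0 in each.

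JUND, IER2 and CEBPB had an N/C ratio above all 3 control cultures in all 6 TPR-depleted cultures, 3 of 9 genes, against 3.07% of all genes. JUND ran from −0.44 to −0.27 in the depleted cultures and from −0.94 to −0.54 in control, IER2 from 0.50 to 0.96 and from −0.38 to 0.47, and CEBPB from −0.12 to 0.27 and from −0.99 to −0.19. With replicate 2 left aside the same 3 genes were clear of control replicates 1 and 3 (4.09% of all genes). The margins were small for IER2, 0.50 for the lowest depleted culture against 0.47, and for CEBPB, −0.12 against −0.19.

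**Figure D5:**
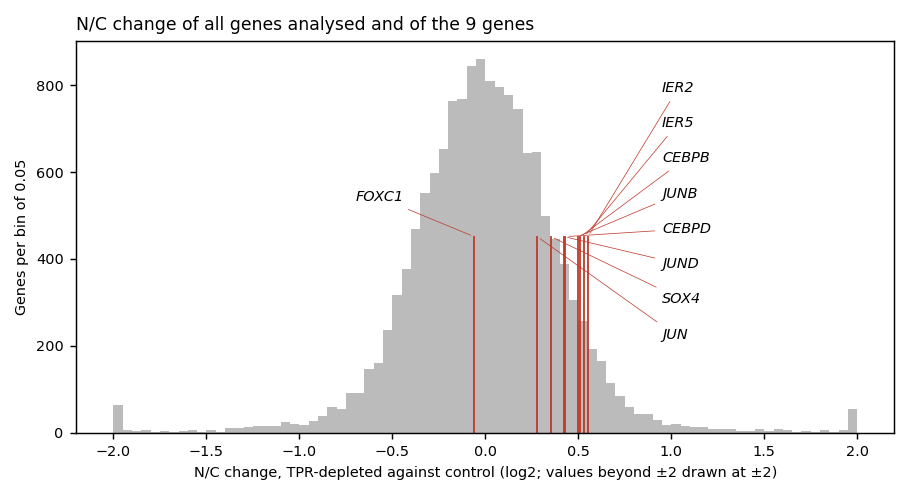
Histogram of the N/C change (log2, both TPR shRNAs against control) of all 14611 genes in grey, in bins of 0.05 log2 units and with the genes per bin on the vertical axis, and the values of the 9 genes as red lines of arbitrary height. IER2, IER5, CEBPB and JUNB lie at 0.50 to 0.55, FOXC1 at −0.06, and none of them was called.

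Other intronless protein-coding genes are the nearest group for comparison, and there were 194 of them past the filter. These have 1 exon in every protein-coding transcript, and the multi-exon genes have a median above 1 exon. By these rules IER2 and JUND, with their spliced transcripts, would count as multi-exon. Their median N/C change with both shRNAs was 0.29, with 84.5% above 0, and that of 12130 multi-exon protein-coding genes was −0.01, with 49.0% above 0. Without control replicate 2 the medians were 0.20 for the other intronless genes, −0.02 for the multi-exon genes and 0.22 for the 9. No test of a difference between the groups was made. In the total fraction the other intronless genes had medians of 0.04 (TPR A) and 0.06 (TPR D), with 3 of 194 called in each and 4 of 194 in each without control replicate 2.

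The genes that work with the 9 were taken as lists. Of the 9 FOS, ATF, BATF and JDP genes tested (of 11), the partners of the JUN proteins, none was called in the total fraction with TPR A or TPR D (medians −0.04 and −0.27). FOSL2 was at 72.4 to 81.0 FPKM in control and 140 to 145 with TPR A (0.88 ± 0.22, adjusted p = 0.0579), and FOS at 17.5 to 20.8 and 4.31 to 14.0 FPKM (−1.14 ± 0.74, adjusted p = 0.542). FOSL2, which encodes the AP-1 subunit FRA2, was the 1 partner called in the cytoplasmic/ER fraction, at 53.3 to 75.8 FPKM in control and higher, at 96.5 to 170, with TPR A (0.94 ± 0.22, adjusted p = 0.0446). That call was lost without control replicate 2 (0.79, adjusted p = 0.194), whereas the total change stood at 0.92 (adjusted p = 0.126). Of the 9 JUN kinases, MAP kinases and phosphatases tested (of 10) none was called, and the largest difference was that of DUSP10, a phosphatase of the JUN kinases, at 3.11 to 7.22 FPKM in control, 8.99 to 15.2 with TPR A (1.20 ± 0.46, adjusted p = 0.261) and 8.48 to 15.3 with TPR D (1.41 ± 0.46, adjusted p = 0.141). The DUSP10 changes were 1.17 and 1.38 without control replicate 2.

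Of 27 other immediate-early genes tested (of 32), 1 was called in the total fraction with TPR A and none with TPR D (medians 0.13 and −0.03). The called gene was EGR2, a zinc finger factor, at 0.262 to 0.461 FPKM in control and 1.76 to 2.35 with TPR A (2.09 ± 0.50, adjusted p = 0.0492), and with TPR D it was at 0.797 to 2.0 (1.38 ± 0.50, adjusted p = 0.199). The control means of EGR2 were 0.628 (nuclear), 0.359 (cytoplasmic/ER) and 0.394 FPKM (total). It thus passed the filter of a mean above 1 FPKM only through the TPR-depleted libraries, and its call is not independent of that filter. EGR1 was at 15.2 to 17.1 FPKM in control, 21.9 to 32.2 with TPR A (0.71 ± 0.38, adjusted p = 0.449) and 24.7 to 46.5 with TPR D (0.95 ± 0.38, adjusted p = 0.255). The EGR2 call was lost without control replicate 2 (1.88, adjusted p = 0.116), and the EGR1 changes were 0.70 and 0.94. The 1 gene of the list called then was RHOB, a small GTPase also annotated with 1 exon, which went from 1.06 (adjusted p = 0.121) to 1.43 (adjusted p = 0.0189) with TPR A and from 0.83 (adjusted p = 0.228) to 1.20 (adjusted p = 0.0434) with TPR D. The N/C change of this list had a median of 0.13 with both shRNAs, with 19 of 27 above 0 and none called, and its largest value was that of IER5L, which is also annotated with 1 exon (0.68 ± 0.44). Without control replicate 2 the median was 0.03, with 17 of 27 above 0, and IER5L was at 0.36.

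Among the relatives by family, none of 6 other SOX genes tested (of 15) was called. SOX9, which shapes cartilage, was at 14.0 to 18.9 FPKM in the total control libraries, 26.3 to 40.7 with TPR A (1.08 ± 0.36, adjusted p = 0.186) and 23.4 to 43.5 with TPR D (1.01 ± 0.36, adjusted p = 0.194). SOX12, which like SOX4 has 1 exon and belongs to the same SoxC group, had values below 0 (−0.37 and −0.43, adjusted p = 0.525 and 0.402). SOX9 was at 1.03 and 0.96, and SOX12 at −0.24 and −0.30, without control replicate 2. Of 19 other forkhead genes (of 31) FOXO4 was called as lower with TPR A (5.52 to 8.44 FPKM in control and 1.91 to 3.67 with TPR A, −1.40 ± 0.33, adjusted p = 0.0464), as it was in the nuclear fraction (−1.40 ± 0.33, adjusted p = 0.0399), and none was called with TPR D. Both FOXO4 calls were lost without control replicate 2 (−1.43, adjusted p = 0.116, and −1.61, adjusted p = 0.0532). None of 3 other C/EBP genes tested (of 4) was called with either shRNA, and the largest difference was that of DDIT3, a C/EBP-related stress factor, with 0.46 and 0.50 (adjusted p = 0.543 and 0.438), and 0.21 and 0.26 without control replicate 2.

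Likeness in pattern was measured as Pearson's r of the log2 levels over the 9 group means, which share libraries and fractions and carry no test. Nearest to JUN were SYTL2 (0.99) and PNPLA3 (0.97), to SOX4 ZBTB34 (0.99) and BCL11B (0.99), to JUND TNFAIP8L1 and NCBP2AS2 (both 0.97) and to JUNB TBCC (0.88) and PTRH2 (0.87). Nearest to IER5 were CSTF3 (0.99) and VRK1 (0.98), to IER2 SRSF3 (0.97) and MSLN (0.94), to CEBPB PDF (0.94) and OIP5 (0.93), to CEBPD WDR5B-DT (0.97) and MED10 (0.95), and to FOXC1 the unnamed gene ENSG00000258297 (0.99) and ZNF829 (0.98). Among the 9 genes the pair most alike was JUN with SOX4, level with IER2 and IER5 (r = 0.88 for each), and the most opposed pairs were JUND with SOX4 (−0.86) and with JUN (−0.86). When control replicate 2 was left out, these 4 pairs were at 0.84, 0.90, −0.83 and −0.86 in that order, and the r of the 18 nearest genes, 0.87 to 0.99 with all libraries, ran from 0.66 to 0.99.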

How the data were processed

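The authors quantified poly(A)+ reads with Salmon on Gencode 19 protein-coding and lncRNA transcripts (hg19), summed them to genes and deposited gene FPKM. Counts were not analysed here, so no count model was run, and depth came from the spacing of low values. Libraries were put on 1 scale with median-of-ratios factors, and genes were kept with a mean above 1 FPKM outside the mitochondrial genome (13 genes). Log2(FPKM + 0.1) of the 27 libraries in 9 groups was fitted with limma 3.58.1 in R 4.3.3 (eBayes with trend), tested on simulated data first. Fold changes are on this scale and understate low genes. Summaries used Python 3.11.15. Gene models were GENCODE 44 on GRCh37 and promoters RefSeq on GRCh38.p14. The 9 genes and all lists were chosen with earlier results of these data known. From the lists, genes past the threshold were named, or else the largest changes among genes above 5 FPKM; nearest genes were the 2 with the highest r. Nuclear and cytoplasmic/ER libraries of a culture come from the same cells, and their deviations from the group means correlated at 0.223 to 0.469. Those of control and TPR A total libraries with the same replicate number also correlated (0.137 to 0.324), though the labels give a number only and state no pairing between shRNAs. Alternatives were other scaling, pseudocounts, filters, blocks, no trend, fewer groups and each culture left out.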

Additional observations from a re-analysis of the deposited data

How the results depend on the processing

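The 9 genes rested on about 107 reads (CEBPD) to 4362 reads (JUND) in their lowest library, and what depth or the 3 cultures per group limit was not tested. The number of the 9 genes called in the N/C ratio was 1 in control and 4 under each TPR shRNA. With the replicate block it was 3 in control (45.7% of all genes called), with the culture as a block 5 in control (55.1%), and with no minimum FPKM 1 with TPR D (14.5% of 30252 genes). Leaving out 1 culture gave 0 to 2 (25.2 to 40% of all genes), 0 to 4 (10.7 to 32.6%) and 0 to 4 (16.7 to 35%). In the total fraction it was 1 (TPR A) and 0 (TPR D), with the replicate block 2 and 1 (2.59% and 3.16% of all genes), and with a culture left out 0 to 2 (0.0274 to 1.14%) and 0 to 1 (0.212 to 0.78%). In the nuclear fraction with TPR A it was 1, with the replicate block 2 (2.57%), and 0 to 1 with a culture left out (0.0958 to 1.16%). What the block added was SOX4 in the total fraction (adjusted p = 0.0103 for TPR A, 0.00866 for TPR D) and the nuclear fraction (adjusted p = 0.0362). Deviations from the group means, compared by replicate number, correlated at −0.010 to 0.197 between total control and TPR D libraries. Between nuclear control and TPR A libraries they correlated at −0.26 to 0.25, so that the block in these comparisons is a shared number only. The counts for N/C changes, cytoplasmic/ER levels and TPR A against TPR D were 0 throughout.

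The median N/C change ran from 0.24 to 0.53 for TPR A, 0.19 to 0.59 for TPR D and 0.22 to 0.54 for both when a culture was left out, lowest in each case without control replicate 2, and within replicate 1 it was 0.16 and 0.091, a split chosen after seeing the data. The following uncalled values changed sign, given as ranges with a culture left out. In the N/C ratio these were JUNB in control (−0.36 to 0.13) and CEBPB with TPR D (−0.019 to 0.17), and in the N/C change FOXC1 with TPR D (−0.067 to 0.098). In the total fraction with TPR A they were JUNB (−0.11 to 0.27), IER2 (−0.093 to 0.48), IER5 (−0.24 to 0.38), CEBPD (−0.27 to 0.52) and FOXC1 (−0.050 to 0.39), with TPR D JUNB (−0.039 to 0.44), IER5 (−0.17 to 0.46) and CEBPB (−0.035 to 0.28), and between the shRNAs SOX4 (−0.26 to 0.11). In the nuclear fraction with TPR A they were JUNB (−0.19 to 0.45), IER5 (−0.14 to 0.53), CEBPB (−0.55 to 0.032), CEBPD (−0.48 to 0.38) and FOXC1 (−0.21 to 0.17), and with TPR D JUNB (−0.16 to 0.49), IER5 (−0.17 to 0.50), CEBPB (−0.19 to 0.40) and FOXC1 (−0.22 to 0.16). In the cytoplasmic/ER fraction they were CEBPD (−0.72 to 0.024) and FOXC1 (−0.078 to 0.27) with TPR A, and CEBPD (−0.56 to 0.044) and FOXC1 (−0.32 to 0.12) with TPR D. On FPKM as deposited the total change of JUNB with TPR A was −0.025 and that of IER5 with TPR D −0.0027. The cause was not tested.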
